A study of Saccharomyces cerevisiae with 11 samples.

Results

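Assembly factors of the large (60S) ribosomal subunit were followed as a group of 51 genes, picked by systematic name from the 7126 rows of a yeast gene count table and present in it without exception. The table came from bulk RNA sequencing of *Saccharomyces cerevisiae* cultures that expressed a fragment of human huntingtin (Htt), the protein whose glutamine tract is expanded in Huntington's disease. The fragment carried a nuclear localization signal (NLS) and GFP and either an expanded or a short glutamine tract (Htt103Q-NLS and Htt25Q-NLS, named for the number of glutamines), and it was expressed from the galactose-inducible *GAL* promoter. Each strain held a low-copy (*CEN*) plasmid with *SLX5*, which encodes a subunit of a SUMO-targeted ubiquitin ligase, or the empty vector. There were 4 groups, written as Htt103Q [*SLX5*], Htt103Q [V], Htt25Q [*SLX5*] and Htt25Q [V]. All of them were grown in 2% raffinose medium at 25°C and induced with 2% galactose for 4 h, so the controls had also received galactose and expressed an Htt fragment. Clones a, b and c were available for the first 3 groups and clones a and b for Htt25Q [V], giving 11 libraries in all. The study's methods state that the library of Htt25Q [V] clone c was removed for its high share of ribosomal RNA sequences. Each library came from a separate clone grown as a liquid culture.

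Ribosome assembly starts in the nucleolus, where RNA polymerase I transcribes the precursor rRNA and assembly factors bind it while it is still being cut and folded. Factors of the large subunit act on the 27S pre-rRNA: scaffold proteins hold its domains together, DEAD-box RNA helicases remodel it, GTPases and the giant ATPase Rea1 drive release steps, and a last set of factors takes the particle through the nuclear pore and into the cytoplasm. In yeast these genes belong to the ribosome biogenesis (Ribi) regulon, whose promoters often carry the PAC and RRPE elements. The repressors Dot6 and Tod6 bind PAC, Stb3 binds RRPE, and the activator Sfp1 responds to growth signals.

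The promoters show how far the 51 genes share this layout. The 250 bases before each start codon were searched on both strands for PAC as GATGAG and for RRPE as AAAAATTT, whose reverse complements are CTCATC and AAATTTTT, and overlapping copies were counted separately. The stretches printed here were chosen from both ends of the response to Htt103Q-NLS described further on: *YTM1*, *DBP10*, *SPB1* and *MAK16* had some of the largest increases, and *SSF1*, *MAK5*, *NIP7*, *NOG2* and *IPI1* had none that passed the test. They read 5′ to 3′ on the coding strand, capitals mark the PAC and RRPE letters, and 8 bases flank the motifs on each side, with any copy that reached into a flank taken in whole.
YTM1: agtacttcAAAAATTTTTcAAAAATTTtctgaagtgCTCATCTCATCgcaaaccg
DBP10: tttcaagcGATGAGatgaaatt
SPB1: tttgtctgAAAAATTTTTtgcgatgc
MAK16: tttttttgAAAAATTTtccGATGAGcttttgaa
SSF1: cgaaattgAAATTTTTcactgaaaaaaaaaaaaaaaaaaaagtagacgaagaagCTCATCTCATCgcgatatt
MAK5: tttccagcGATGAGcttataag
NIP7: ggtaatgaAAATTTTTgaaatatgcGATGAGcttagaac
NOG2: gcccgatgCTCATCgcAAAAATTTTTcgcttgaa
IPI1: ccatcggaAAATTTTTccaccaga
In the RefSeq R64 genome these stretches lie at chrXV:832635-832689 on the forward strand (*YTM1*), chrIV:394074-394095 on the forward strand (*DBP10*), chrIII:31307-31332 on the forward strand (*SPB1*), chrI:101256-101288 on the reverse strand (*MAK16*), chrVIII:229179-229251 on the forward strand (*SSF1*), chrII:528190-528211 on the forward strand (*MAK5*), chrXVI:153349-153387 on the forward strand (*NIP7*), chrXIV:723268-723301 on the reverse strand (*NOG2*) and chrVIII:276638-276661 on the forward strand (*IPI1*). All of them are upstream of the coding sequence. The flat genes *SSF1*, *NIP7* and *NOG2* held both motifs, just as *YTM1* and *MAK16* did.

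PAC stood before 47 of the 51 genes (92.2%), against 17.0% of all 6007 promoters of the same length. RRPE stood before 45 (88.2%), against 13.4% of all promoters. Both were found before 41 members (80.4%), against 4.98% of all promoters, and no member lacked both. The members with RRPE alone were *NSA1*, *SPB1*, *IPI1* and *RIX1*. In 35 of the 41 promoters with both, RRPE lay farther from the start codon than PAC in the closest pair, and the first bases of that pair were 17 bases apart at the median (8 to 59). The PAC nearest the start codon lay 116 bases before it at the median of 47 genes (41 to 205). Assembly factors of the small (40S) subunit had nearly the same makeup, with both motifs before 45 of 57 (78.9%), whereas 1 of 81 genes for large-subunit ribosomal proteins (1.23%) had both. A motif match describes letters and does not show that a factor binds there.

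**Figure D1:**
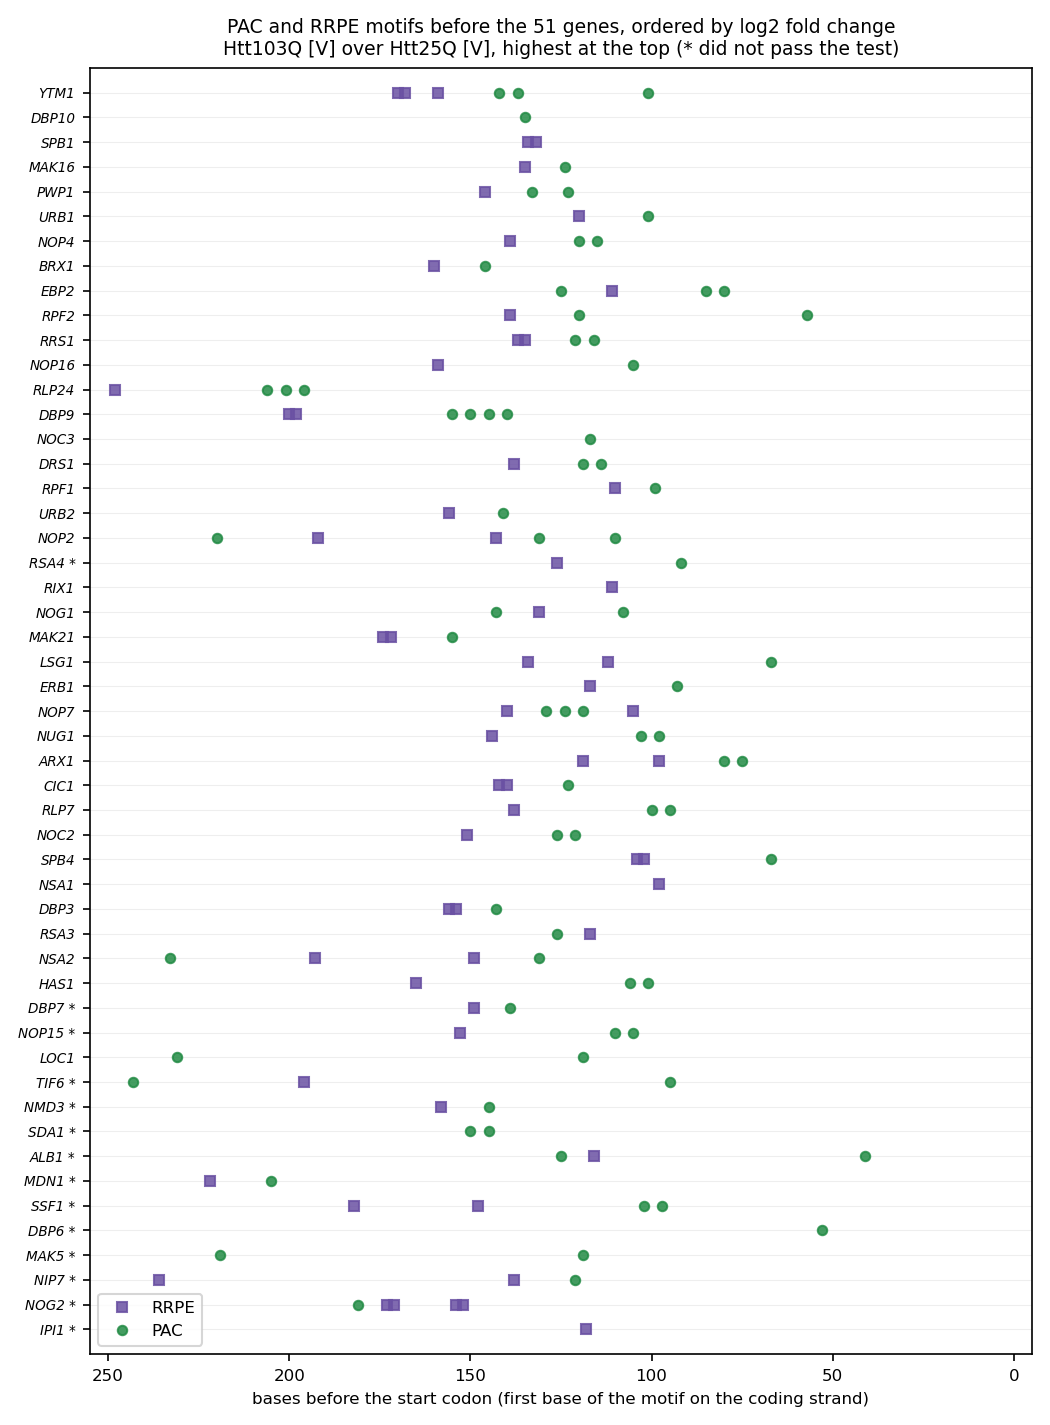
Positions of PAC (circles) and RRPE (squares) before the start codon of each of the 51 genes, with bases before the start codon on the x axis and genes ordered by their log2 fold change between Htt103Q [V] and Htt25Q [V]. PAC is present in 47 rows and RRPE in 45, and both occur at the top (*YTM1*) and near the bottom (*NOG2*) of the order.

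The libraries held between 19942070 and 29440801 counted fragments, and the 51 genes had between 241 and 18978 counts in a library. Counting error therefore weighs more on the factors with few counts. Replicate cultures of 1 group differed by more than sampling noise in every case, and none was counted as a duplicate. Levels are given as counts per 1000000 (CPM) after scaling by the trimmed mean of M values, and as the length-scaled TPM where genes are compared with each other. The plasmid label was checked with *SLX5* itself (YDL013W), which had 494, 752 and 663 CPM in Htt103Q [*SLX5*], against 53.9, 50.1 and 65.2 CPM in Htt103Q [V], and 1216, 1173 and 1147 CPM in Htt25Q [*SLX5*], against 94.4 and 99.6 CPM in Htt25Q [V]. Both Htt103Q groups were spread over their cultures, and culture c of Htt103Q [V] lay within the range of the Htt103Q [*SLX5*] cultures. On the first principal component of all genes, Htt103Q [V] a, b and c lay at 37.1, 30.8 and 21.3, whereas Htt103Q [*SLX5*] a, b and c lay at 22.8, 7.52 and 17.9. Ribosomal RNA made up 1.02 to 2.40% of all counts in clone a of each group and 0.254 to 0.958% in the remaining 7 libraries.

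As a group, the transcripts of the 51 factors made up a larger share of the RNA in cells with Htt103Q-NLS. Both TPM and scaled CPM are relative to the other transcripts of a library, so amounts per cell were not measured. Their summed level was 7430, 6686 and 5363 TPM in Htt103Q [V] cultures a, b and c, against 4305 and 4039 TPM in Htt25Q [V] cultures a and b. With plasmid *SLX5* the sum was 5736, 5293 and 5598 TPM in Htt103Q cultures, against 3420, 3781 and 3231 TPM in Htt25Q cultures. Every Htt103Q culture therefore exceeded every Htt25Q culture, by ratios of group means of 1.56 with the vector and 1.59 with *SLX5*. Since the RNA was taken from whole cultures, a change in all cells and a larger change in some of them cannot be told apart.

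Of the 51 factors, 37 rose in Htt103Q [V] against Htt25Q [V] and none fell, where 27.3% of the 6321 genes tested rose (edgeR quasi-likelihood test, adjusted p under 0.05). The median log2 fold change of the 51 was 0.51, a fold of 1.43, against -0.02 for all genes tested, and 47 of the 51 values were above 0. With plasmid *SLX5* in both strains, 43 factors rose in Htt103Q [*SLX5*] against Htt25Q [*SLX5*] and none fell, where 26.9% of genes tested rose, and the median log2 fold change was 0.56 against -0.01 for all genes. In 36 of the 51 all Htt103Q [V] cultures lay above all Htt25Q [V] cultures, which held for 33.9% of genes tested. In 46 of the 51 all Htt103Q [*SLX5*] cultures lay above all Htt25Q [*SLX5*] cultures, which held for 31.5% of genes tested. Of the 37 calls with the vector, 23 held under each of 20 alternative fits, and of the 43 with *SLX5*, 33 did. The vector calls lost under at least 1 alternative were those of *ERB1*, *NSA1*, *NSA2*, *MAK16*, *MAK21*, *DRS1*, *HAS1*, *NUG1*, *NOG1*, *RLP7*, *RIX1*, *LOC1*, *URB2* and *ARX1*, in 12 of them when Htt25Q [V] culture a or b was left out. With *SLX5* they were those of *NOP15*, *NSA2*, *MAK21*, *DBP7*, *HAS1*, *NOG1*, *TIF6*, *MDN1*, *URB2* and *RSA4*. The factors that passed in neither comparison were *SSF1*, *MAK5*, *DBP6*, *NOG2*, *IPI1*, *ALB1*, *SDA1* and *NIP7*.

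**Figure D2:**
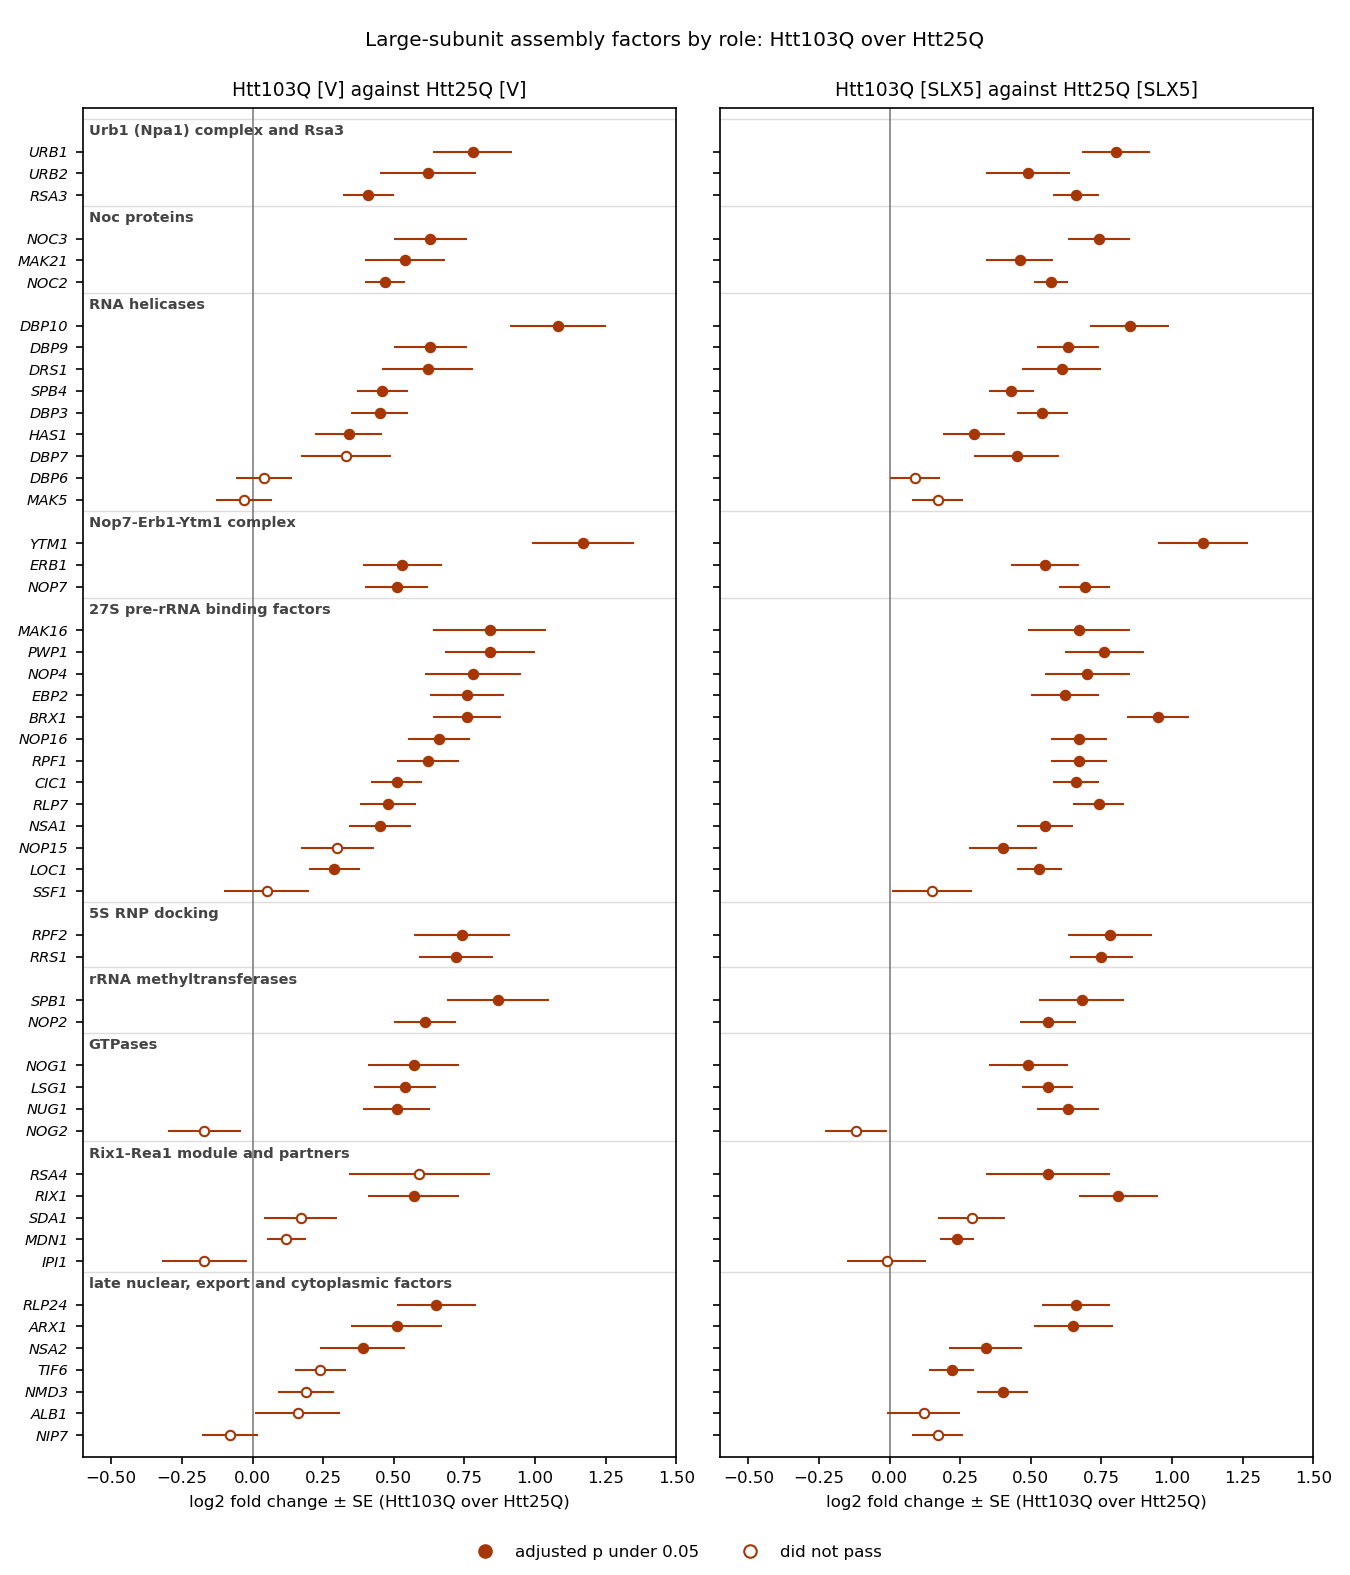
Log2 fold change with its standard error for each of the 51 factors, grouped by role, in Htt103Q [V] against Htt25Q [V] (left) and Htt103Q [*SLX5*] against Htt25Q [*SLX5*] (right). Filled circles passed the test at an adjusted p under 0.05 (37 on the left and 43 on the right), and on the left the group medians run between 0.17 for the Rix1-Rea1 module and 0.74 for the methyltransferases.

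The earliest particle is organised by the Urb1 (Npa1) complex, which binds the pre-rRNA together with Rsa3, and by the Noc proteins, which form pairs that accompany the particle through the nucleolus. All 3 members of the first group and all 3 of the second rose in both comparisons, where 27.3 and 26.9% of genes tested rose. Their median log2 fold changes with the vector were 0.62 and 0.54. *URB1* (YKL014C), the scaffold of its complex, had 44.3, 38.6 and 39.5 CPM in the Htt103Q [V] cultures, against 23.6 and 24.0 CPM in the Htt25Q [V] cultures (log2 fold change 0.78 ± 0.14, adjusted p = 0.00074). Its values with *SLX5* were 42.4, 32.9 and 30.2 CPM in the Htt103Q [*SLX5*] cultures, against 19.6, 22.3 and 18.6 CPM in the Htt25Q [*SLX5*] cultures (0.80 ± 0.12, adjusted p = 0.000343). Its Htt103Q cultures did not overlap its Htt25Q cultures with either plasmid. *RSA3* (YLR221C) had 102, 104 and 91.3 CPM in the Htt103Q [V] cultures, against 77.3 and 71.5 CPM in the Htt25Q [V] cultures (0.41 ± 0.09, adjusted p = 0.0033), the smallest change of its group. Under plasmid *SLX5* it had 91.9, 90.9 and 96.4 CPM in the Htt103Q [*SLX5*] cultures, against 61.2, 63.5 and 51.6 CPM in the Htt25Q [*SLX5*] cultures (0.66 ± 0.08, adjusted p = 0.000116). *URB2*, the third member, had log2 fold changes of 0.62 with the vector and 0.49 with *SLX5*.

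*NOC2* (YOR206W), which pairs with either of the other Noc proteins, varied least between replicates. It had 180, 179 and 165 CPM in the Htt103Q [V] cultures, against 127 and 126 CPM in the Htt25Q [V] cultures (0.47 ± 0.07, adjusted p = 0.000271), and with plasmid *SLX5* 158, 151 and 158 CPM in the Htt103Q [*SLX5*] cultures, against 106, 110 and 99.7 CPM in the Htt25Q [*SLX5*] cultures (0.57 ± 0.06, adjusted p = 5.7e-05). *NOC3* (YLR002C), which joins Noc2 on later nuclear particles, had 161, 140 and 120 CPM in the Htt103Q [V] cultures, against 95.5 and 86.4 CPM in the Htt25Q [V] cultures (0.63 ± 0.13, adjusted p = 0.00154). With plasmid *SLX5* *NOC3* had 125, 112 and 119 CPM in the Htt103Q [*SLX5*] cultures, against 70.8, 79.9 and 62.2 CPM in the Htt25Q [*SLX5*] cultures (0.74 ± 0.11, adjusted p = 0.000329). *MAK21* (Noc1), the partner of Noc2 on early particles, had log2 fold changes of 0.54 and 0.46 with the vector and with *SLX5*. No culture of Htt103Q overlapped a Htt25Q culture of the same plasmid for *NOC2* or *NOC3*.

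The RNA helicases were split. Of the 9, 6 rose with the vector (66.7%) and 7 with plasmid *SLX5* (77.8%), where 27.3 and 26.9% of genes tested rose. Their median log2 fold change was 0.45 in each comparison. *DBP10* (YDL031W), a DEAD-box protein needed for maturation of the 25S rRNA, had 331, 260 and 204 CPM in the Htt103Q [V] cultures, against 130 and 121 CPM in the Htt25Q [V] cultures (1.08 ± 0.17, adjusted p = 0.0003). The *SLX5* cultures gave 207, 188 and 202 CPM in the Htt103Q [*SLX5*] cultures, against 108, 125 and 99.5 CPM in the Htt25Q [*SLX5*] cultures (0.85 ± 0.14, adjusted p = 0.000655). Among the Htt103Q [V] cultures its level was highest in culture a, and culture c lay within the range of Htt103Q [*SLX5*]. *MAK5* (YBR142W), another DEAD-box protein of the nucleolar 60S precursor, was at the other end, with 66.1, 78.1 and 63.1 CPM in the Htt103Q [V] cultures, against 70.2 and 71.3 CPM in the Htt25Q [V] cultures (-0.03 ± 0.10, adjusted p = 0.788). With plasmid *SLX5* *MAK5* had 64.2, 74.0 and 66.1 CPM in the Htt103Q [*SLX5*] cultures, against 59.9, 65.7 and 56.5 CPM in the Htt25Q [*SLX5*] cultures (0.17 ± 0.09, adjusted p = 0.146), and its Htt103Q and Htt25Q cultures overlapped with either plasmid. *DBP6*, which works with the Urb1 complex, did not pass either (0.04 ± 0.10 with the vector and 0.09 ± 0.09 with *SLX5*), although *URB1*, *URB2* and *RSA3* rose. *DBP9*, *DRS1*, *SPB4*, *DBP3* and *HAS1* rose with both plasmids, by 0.63, 0.62, 0.46, 0.45 and 0.34 with the vector. *DBP7* passed only with plasmid *SLX5* (0.45 ± 0.15, adjusted p = 0.022, and 0.33 ± 0.16, adjusted p = 0.107 with the vector), and the difference between these values did not pass in the interaction test given further on. Between 8.68 and 11.4% of the counts that *HAS1* and the overlapping row YMR290W-A held together were assigned to YMR290W-A, so the counts of *HAS1* are uncertain by that share.

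The Nop7-Erb1-Ytm1 complex, known as PeBoW in mammals, binds the 27S pre-rRNA and must be taken off by Rea1 before the particle leaves the nucleolus. All 3 genes rose in both comparisons, where 27.3 and 26.9% of genes tested rose. Of the 51 factors, *YTM1* (YOR272W) had the largest log2 fold change in each. It had 252, 212 and 154 CPM in the Htt103Q [V] cultures, against 97.7 and 85.3 CPM in the Htt25Q [V] cultures (1.17 ± 0.18, adjusted p = 0.000299), a fold of 2.25. With plasmid *SLX5* it had 165, 135 and 166 CPM in the Htt103Q [*SLX5*] cultures, against 69.8, 80.8 and 65.5 CPM in the Htt25Q [*SLX5*] cultures (1.11 ± 0.16, adjusted p = 0.000224), a fold of 2.15. *NOP7* (YGR103W) had 462, 450 and 386 CPM in the Htt103Q [V] cultures, against 326 and 281 CPM in the Htt25Q [V] cultures (0.51 ± 0.11, adjusted p = 0.00168). With plasmid *SLX5* *NOP7* had 419, 419 and 412 CPM in the Htt103Q [*SLX5*] cultures, against 255, 288 and 233 CPM in the Htt25Q [*SLX5*] cultures (0.69 ± 0.09, adjusted p = 0.000169), with no overlap between Htt103Q and Htt25Q cultures. *ERB1* had log2 fold changes of 0.53 with the vector and 0.55 with *SLX5*, so the value of *YTM1* lay above those of its partners in each comparison.

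**Figure D3:**
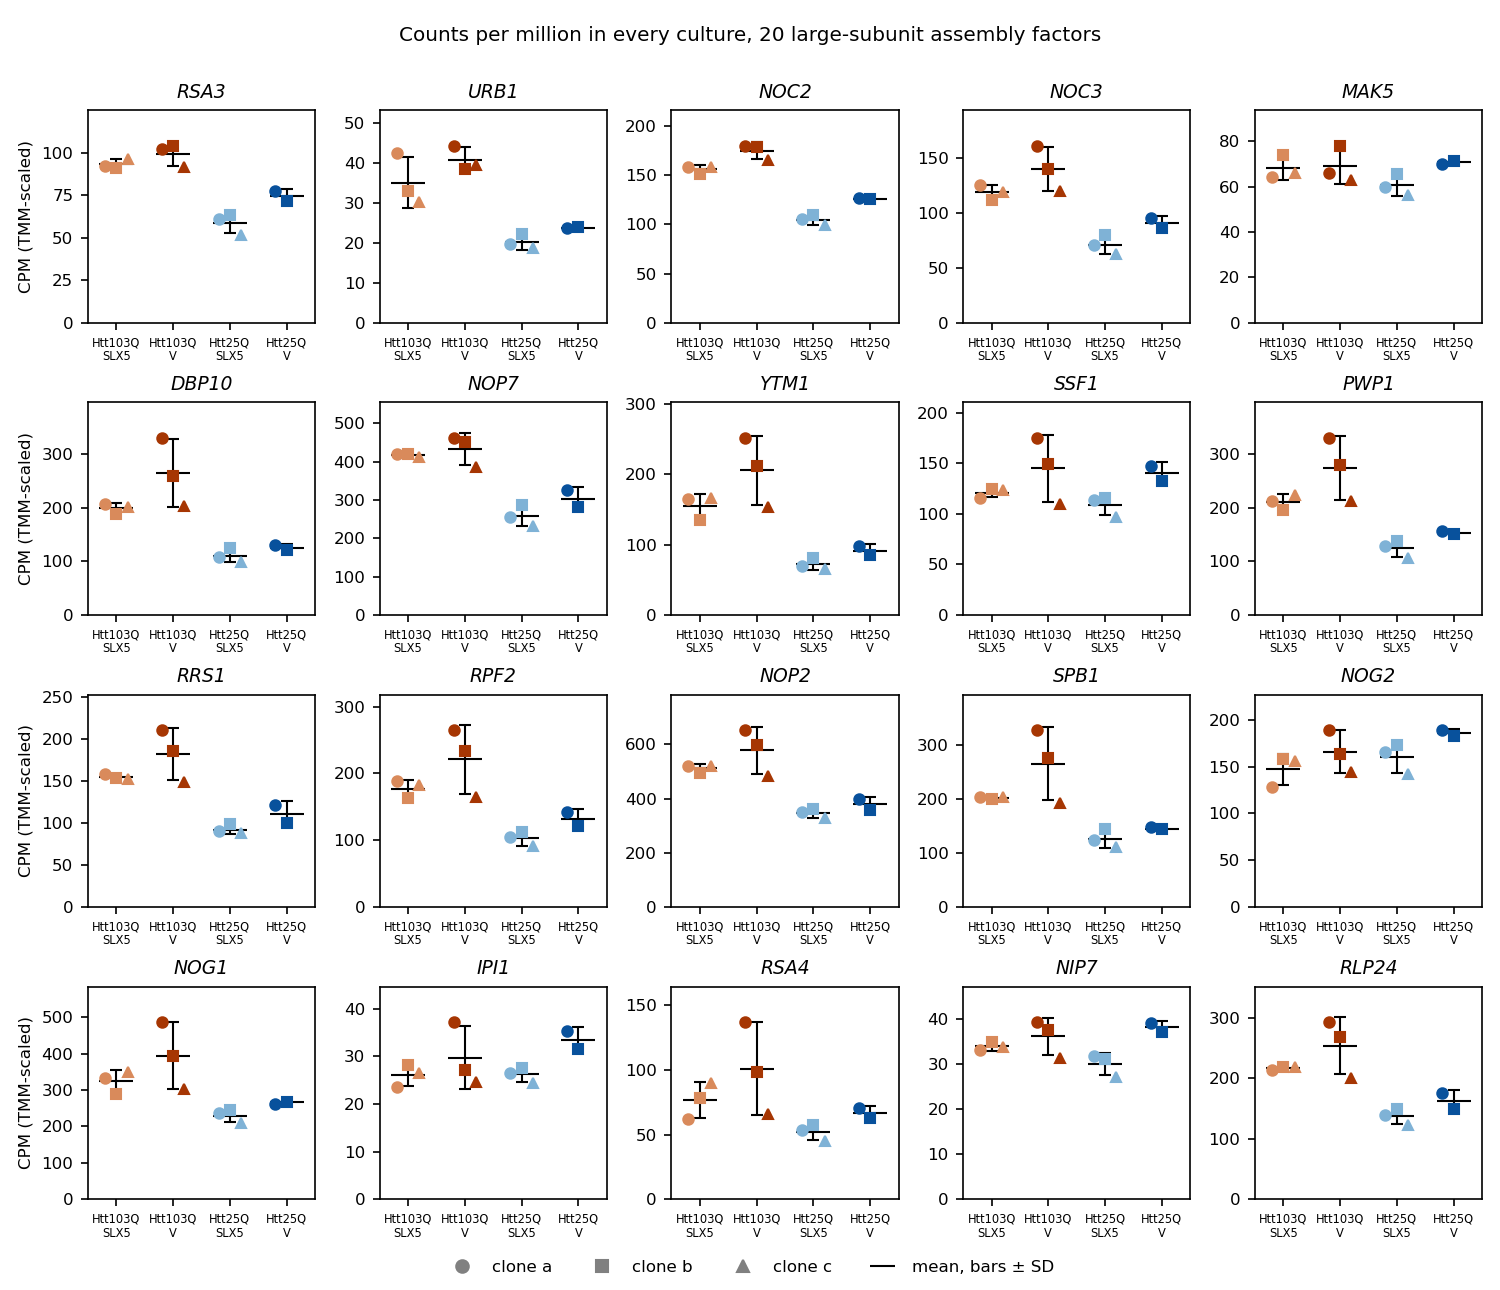
CPM in every culture for the 20 factors with the largest and the smallest log2 fold change of each role group, with symbols for the clone letter, horizontal bars for the group mean and whiskers for the SD (n = 3, and 2 for Htt25Q [V]). The Htt103Q cultures of *YTM1* lie between 135 and 252 CPM, above its Htt25Q cultures at 65.5 to 97.7 CPM, whereas those of *NOG2* overlap.

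The largest group, 13 factors that bind the 27S pre-rRNA, had a median log2 fold change of 0.62 with the vector and 0.67 with *SLX5*. Of its members, 11 and 12 rose (84.6 and 92.3%, where 27.3 and 26.9% of genes tested rose). *PWP1* (YLR196W), a WD-repeat protein, had 330, 280 and 212 CPM in the Htt103Q [V] cultures, against 156 and 150 CPM in the Htt25Q [V] cultures (0.84 ± 0.16, adjusted p = 0.00103). Its values with *SLX5* were 213, 195 and 223 CPM in the Htt103Q [*SLX5*] cultures, against 128, 138 and 107 CPM in the Htt25Q [*SLX5*] cultures (0.76 ± 0.14, adjusted p = 0.00101). *MAK16*, which binds with Rpf1 and Nsa1, had a value of 0.84 ± 0.20, adjusted p = 0.00412, and *NOP4*, an RNA-binding protein, had 0.78 ± 0.17, adjusted p = 0.0023. *BRX1* and *EBP2*, whose products bind each other, both had log2 fold changes of 0.76 with the vector, and with *SLX5* they had 0.95 and 0.62. The factors at the internal transcribed spacer 2, *CIC1*, *RLP7* and *NOP15*, had 0.51, 0.48 and 0.30 with the vector, of which *NOP15* missed the threshold (adjusted p = 0.0633) but passed with *SLX5* (0.40 ± 0.12, adjusted p = 0.0117). *NOP16*, *RPF1*, *NSA1* and *LOC1* rose by 0.66, 0.62, 0.45 and 0.29. Of the counts that *NOP4* and the overlapping row YPL044C held together, 5.11 to 8.78% were assigned to YPL044C.

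*SSF1* (YHR066W) was the exception of this group. It had 175, 149 and 110 CPM in the Htt103Q [V] cultures, against 147 and 132 CPM in the Htt25Q [V] cultures (0.05 ± 0.15, adjusted p = 0.783), and with plasmid *SLX5* 116, 124 and 123 CPM in the Htt103Q [*SLX5*] cultures, against 114, 116 and 96.6 CPM in the Htt25Q [*SLX5*] cultures (0.15 ± 0.14, adjusted p = 0.373). The Htt103Q [V] cultures spanned a wider range than the Htt25Q [V] cultures and enclosed them. Its paralog *SSF2* (YDR312W), whose coding sequence is identical at 92.1% of bases (1254 of 1362) and which is not among the 51, had 185, 171 and 139 CPM in the Htt103Q [V] cultures, against 86.0 and 81.3 CPM in the Htt25Q [V] cultures (0.98 ± 0.11, adjusted p = 6.34e-05). With plasmid *SLX5* *SSF2* had 149, 136 and 144 CPM in the Htt103Q [*SLX5*] cultures, against 68.0, 75.2 and 66.8 CPM in the Htt25Q [*SLX5*] cultures (1.03 ± 0.10, adjusted p = 2.78e-05). Counts of *SSF1* were whole numbers in every library, so no count divided between the paralogs is visible. Whether reads from stretches identical in both genes were lost or misplaced was not tested.

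Rpf2 and Rrs1 bring the 5S RNP, made of 5S rRNA, Rpl5 and Rpl11, onto the particle, and their transcripts moved by nearly equal amounts. *RPF2* (YKR081C) had 265, 234 and 165 CPM in the Htt103Q [V] cultures, against 142 and 122 CPM in the Htt25Q [V] cultures (0.74 ± 0.17, adjusted p = 0.00316). Under plasmid *SLX5* it had 188, 163 and 182 CPM in the Htt103Q [*SLX5*] cultures, against 105, 113 and 91.4 CPM in the Htt25Q [*SLX5*] cultures (0.78 ± 0.15, adjusted p = 0.00123). *RRS1* (YOR294W) had 211, 186 and 149 CPM in the Htt103Q [V] cultures, against 122 and 100 CPM in the Htt25Q [V] cultures (0.72 ± 0.13, adjusted p = 0.000803). This was a gap with no overlap between the groups, and it was also present with plasmid *SLX5*, where *RRS1* had 159, 154 and 153 CPM in the Htt103Q [*SLX5*] cultures, against 90.4, 98.7 and 87.7 CPM in the Htt25Q [*SLX5*] cultures (0.75 ± 0.11, adjusted p = 0.000334).

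The methyltransferases of the large-subunit rRNA rose as well. *NOP2* (YNL061W), which makes a 5-methylcytosine in the 25S rRNA, had 653, 599 and 483 CPM in the Htt103Q [V] cultures, against 399 and 359 CPM in the Htt25Q [V] cultures (0.61 ± 0.11, adjusted p = 0.000815). The *SLX5* cultures gave 520, 494 and 520 CPM in the Htt103Q [*SLX5*] cultures, against 349, 363 and 329 CPM in the Htt25Q [*SLX5*] cultures (0.56 ± 0.10, adjusted p = 0.000738). *SPB1* (YCL054W), which methylates a ribose in the peptidyl transferase centre, is 1 of the 4 members with RRPE alone. *SPB1* had 327, 275 and 193 CPM in the Htt103Q [V] cultures, against 147 and 144 CPM in the Htt25Q [V] cultures (0.87 ± 0.18, adjusted p = 0.00156). With plasmid *SLX5* *SPB1* had 203, 199 and 204 CPM in the Htt103Q [*SLX5*] cultures, against 123, 144 and 111 CPM in the Htt25Q [*SLX5*] cultures (0.68 ± 0.15, adjusted p = 0.00338).

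Of the 4 GTPases, 3 rose with either plasmid (75.0%, where 27.3% of genes tested rose with the vector and 26.9% with *SLX5*). *NOG1* (YPL093W), which binds early and stays until the cytoplasm, had 487, 394 and 304 CPM in the Htt103Q [V] cultures, against 263 and 268 CPM in the Htt25Q [V] cultures (0.57 ± 0.16, adjusted p = 0.00953). With plasmid *SLX5* it had 332, 289 and 350 CPM in the Htt103Q [*SLX5*] cultures, against 237, 245 and 209 CPM in the Htt25Q [*SLX5*] cultures (0.49 ± 0.14, adjusted p = 0.012). The call of *NOG1* with the vector was lost when Htt25Q [V] culture a or b was left out (adjusted p = 0.0555 and 0.0521) and without the clone-a libraries (adjusted p = 0.138). With *SLX5* it was lost without Htt25Q [*SLX5*] culture c (0.43, adjusted p = 0.0511). *NUG1*, a nuclear GTPase, and *LSG1*, the cytoplasmic GTPase that releases Nmd3, rose by 0.51 and 0.54 with the vector. *NOG2* (YNR053C), which holds the place of Nmd3 on the nuclear particle and is the only member whose coding sequence has an intron in RefSeq, had values below 0 that did not pass. *NOG2* had 189, 163 and 144 CPM in the Htt103Q [V] cultures, against 189 and 183 CPM in the Htt25Q [V] cultures (-0.17 ± 0.13, adjusted p = 0.281). With plasmid *SLX5* *NOG2* had 128, 158 and 156 CPM in the Htt103Q [*SLX5*] cultures, against 166, 173 and 142 CPM in the Htt25Q [*SLX5*] cultures (-0.12 ± 0.11, adjusted p = 0.397).

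The Rix1-Rea1 module remodels the particle in the nucleoplasm. With the vector 1 of 5 genes rose, *RIX1* (0.57 ± 0.16, adjusted p = 0.0111), and with *SLX5* 3 rose, where 27.3 and 26.9% of genes tested rose. The vector count thus lay below the share over all genes, and the *SLX5* count lay above it. The median log2 fold changes were 0.17 and 0.29. *RSA4* (YCR072C), which Rea1 pulls to remodel the particle, had 137, 98.7 and 65.9 CPM in the Htt103Q [V] cultures, against 70.5 and 63.0 CPM in the Htt25Q [V] cultures (0.59 ± 0.25, adjusted p = 0.0577). Its values with *SLX5* were 62.4, 78.4 and 90.1 CPM in the Htt103Q [*SLX5*] cultures, against 53.8, 57.7 and 45.1 CPM in the Htt25Q [*SLX5*] cultures (0.56 ± 0.22, adjusted p = 0.0483). The cultures of Htt103Q [V] spread more for *RSA4* than for any other factor shown by culture, and culture c lay between the Htt25Q [V] cultures. Whether *RSA4* passed turned on single libraries with either plasmid. With *SLX5* it passed in 12 of 20 alternatives (adjusted p between 0.00566 and 0.166), and the call was lost without any 1 of 8 libraries, with the highest p without Htt103Q [*SLX5*] culture c. With the vector it passed in 5 of 20 (adjusted p between 0.00194 and 0.235), among them DESeq2 (adjusted p = 0.0184), the replicate block (adjusted p = 0.0468) and the fit without Htt103Q [V] culture c (0.84, adjusted p = 0.00194). *IPI1* (YHR085W), a subunit of the Rix1 complex, had 37.2, 27.1 and 24.7 CPM in the Htt103Q [V] cultures, against 35.4 and 31.6 CPM in the Htt25Q [V] cultures (-0.17 ± 0.15, adjusted p = 0.35). Without Htt103Q [V] culture a, its highest value, *IPI1* was called lower in Htt103Q [V] (-0.36, adjusted p = 0.0211). With plasmid *SLX5* *IPI1* had 23.5, 28.2 and 26.6 CPM in the Htt103Q [*SLX5*] cultures, against 26.5, 27.5 and 24.5 CPM in the Htt25Q [*SLX5*] cultures (-0.01 ± 0.14, adjusted p = 0.976), and the groups overlapped with either plasmid. *MDN1*, which encodes Rea1, and *SDA1* had 0.12 ± 0.07 and 0.17 ± 0.13 with the vector, and 0.24 ± 0.06 and 0.29 ± 0.12 with *SLX5*, of which the *MDN1* value with *SLX5* passed (adjusted p = 0.00825).

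Factors that bind late, escort the particle to the pore or leave it in the cytoplasm were also mixed. With the vector 3 of 7 rose (42.9%) and with *SLX5* 5 of 7 (71.4%), where 27.3 and 26.9% of genes tested rose. The median log2 fold changes were 0.24 and 0.34. *RLP24* (YLR009W), the placeholder for Rpl24, had 293, 269 and 201 CPM in the Htt103Q [V] cultures, against 175 and 149 CPM in the Htt25Q [V] cultures (0.65 ± 0.14, adjusted p = 0.00236). Under plasmid *SLX5* it had 213, 219 and 218 CPM in the Htt103Q [*SLX5*] cultures, against 139, 149 and 123 CPM in the Htt25Q [*SLX5*] cultures (0.66 ± 0.12, adjusted p = 0.00112). *ARX1*, an export factor, and *NSA2*, a nuclear factor, rose by 0.51 and 0.39. *TIF6*, which keeps the subunits from joining early, and *NMD3*, the adaptor for the exportin Crm1, had 0.24 ± 0.09, adjusted p = 0.0513 and 0.19 ± 0.10, adjusted p = 0.133 with the vector, and 0.22 ± 0.08, adjusted p = 0.0441 and 0.40 ± 0.09, adjusted p = 0.00374 with *SLX5*. *NIP7* (YPL211W) had 39.4, 37.6 and 31.5 CPM in the Htt103Q [V] cultures, against 39.3 and 37.3 CPM in the Htt25Q [V] cultures (-0.08 ± 0.10, adjusted p = 0.523). With plasmid *SLX5* *NIP7* had 33.2, 35.0 and 33.8 CPM in the Htt103Q [*SLX5*] cultures, against 31.8, 31.3 and 27.2 CPM in the Htt25Q [*SLX5*] cultures (0.17 ± 0.09, adjusted p = 0.135). *ALB1*, whose product partners Arx1, had 0.16 ± 0.15 and 0.12 ± 0.13 and passed in neither.

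The 51 factors were not equally abundant. Per length, *NOP16* was the most abundant factor in Htt103Q [V], at 511 ± 69.5 TPM, and in Htt25Q [V], at 298 ± 17.8 TPM (SD, n = 3 and 2). *TIF6* came next in Htt25Q [V] at 282 ± 9.93 TPM, which does not differ from *NOP16* beyond their spread, and it took the fifth place in Htt103Q [V] at 362 ± 42.5 TPM. At the low end, *URB1* had 5.01 TPM and *URB2* had 3.38 TPM in Htt103Q [V], against 2.71 and 2.04 TPM in Htt25Q [V]. The median over the 51 genes was 86.7 TPM in Htt103Q [V] and 58.9 TPM in Htt25Q [V], where the median of all genes tested was 37.2 and 34.6 TPM.

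The question of whether an extra copy of *SLX5* changes these transcripts was addressed within each Htt length. The comparison of Htt103Q [*SLX5*] with Htt103Q [V] uses the same Htt103Q [V] cultures as that of Htt103Q [V] with Htt25Q [V], so the values are set side by side only. No factor passed in Htt103Q [*SLX5*] against Htt103Q [V], where 0.0158% of genes tested were called. All 51 log2 fold changes were below 0, with a median of -0.21 (-0.44 to -0.00) against -0.00 for all genes, of which 50.4% were below 0, and 8 of the 51 changed sign under at least 1 alternative. At an unadjusted p under 0.05, 15 factors were lower, where 10.6% of genes tested were lower at that p. DESeq2 called none either. The most negative value was that of *MAK16*, which had 349, 323 and 348 CPM in Htt103Q [*SLX5*], against 597, 470 and 318 CPM in Htt103Q [V] (-0.44 ± 0.18, adjusted p = 0.175). *YTM1* had -0.41 ± 0.15, adjusted p = 0.166 and *DBP10* -0.41 ± 0.14, adjusted p = 0.155, beside 1.17 and 1.08 for Htt103Q [V] against Htt25Q [V].

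This result turned on 1 culture. In 50 of the 51 factors culture c was the lowest of the Htt103Q [V] cultures, and in 46 factors cultures a and b both lay above all Htt103Q [*SLX5*] cultures, which held for 25.4% of genes tested. Culture c was set apart after these values were seen. The count of 46 and the calls without culture c therefore describe the same values and are no separate test. Culture c lay within the range of the Htt103Q [*SLX5*] cultures in 30 factors, below it in 19 and above it in 2. All Htt103Q [*SLX5*] cultures lay below all Htt103Q [V] cultures in 2 of the 51, and in 8.43% of genes tested. Without Htt103Q [V] culture c, 35 of the 51 factors were called lower in Htt103Q [*SLX5*], where 11.9% of genes tested were, and the median log2 fold change of all 51 was -0.34. *MAK16*, *YTM1* and *DBP10* were among the 35, at -0.66, -0.59 and -0.58 (adjusted p = 0.00376, 0.00676 and 0.00583). Leaving out any other library left the count at 0. Nothing in the labels sets culture c apart, and its ribosomal RNA share (0.958%) lay between those of cultures a (1.02%) and b (0.467%). Over the 51 factors the median coefficient of variation among the Htt103Q [V] cultures was 16.4%, against 9.16% over all genes tested, and it was 4.47% among the Htt103Q [*SLX5*] cultures, against 8.13% over all genes tested.

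**Figure D4:**
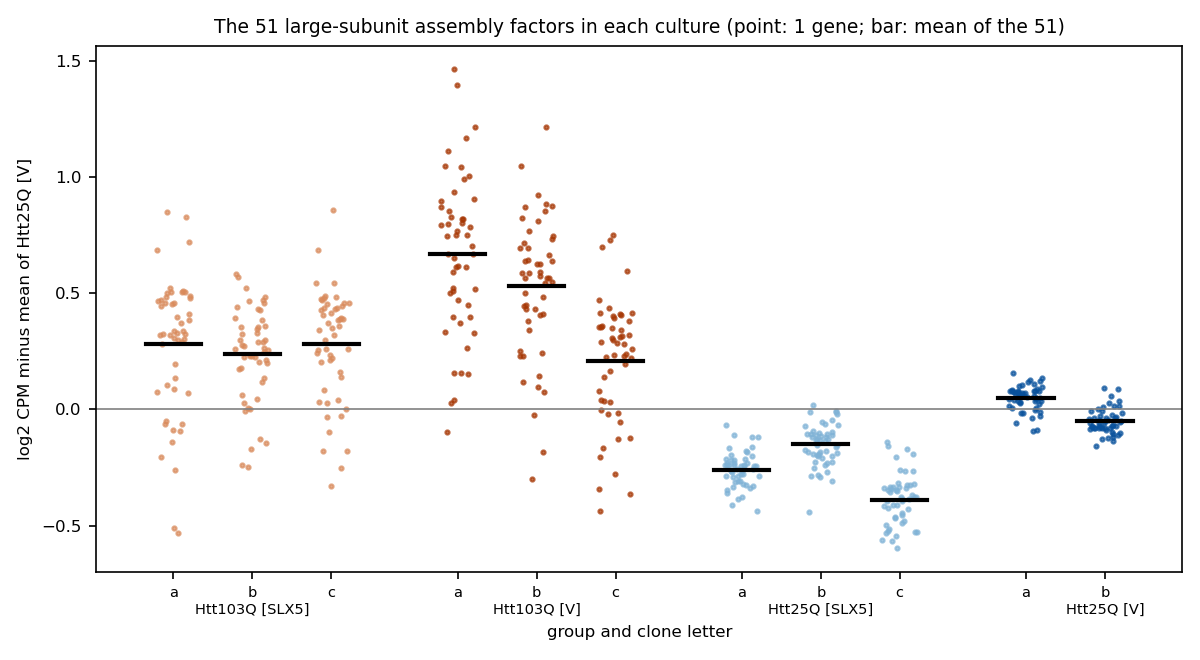
Log2 CPM of each of the 51 factors relative to its mean in Htt25Q [V] (points) and their mean (bars) in each of the 11 cultures, with group and clone letter on the x axis. The means were 0.28, 0.24 and 0.28 in Htt103Q [*SLX5*] and 0.67, 0.53 and 0.21 in Htt103Q [V], where culture c lies at the level of the Htt103Q [*SLX5*] cultures.

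In cells with the short glutamine tract the same direction was seen without a call. All 51 log2 fold changes of Htt25Q [*SLX5*] against Htt25Q [V] were below 0, with a median of -0.26 (-0.44 to -0.13) against 0.00 for all genes, of which 48.6% were below 0. None passed, where 0.0475% of genes tested were called, and 19 had an unadjusted p under 0.05, where 5.03% of genes tested were lower at that p. In 42 of the 51 all Htt25Q [*SLX5*] cultures lay below both Htt25Q [V] cultures, which held for 18.8% of genes tested. The factors share their cultures, here as in the Htt103Q groups, so these counts are not separate observations. Relative to Htt25Q [V], their mean log2 CPM was -0.26, -0.15 and -0.39 in Htt25Q [*SLX5*] cultures a, b and c. It was 0.05 and -0.05 in Htt25Q [V] cultures a and b. Culture c of Htt25Q [*SLX5*] had the lowest value of all cultures in 45 factors. *BRX1* had 108, 108 and 108 CPM in Htt25Q [*SLX5*], against 137 and 155 CPM in Htt25Q [V] (-0.44 ± 0.12, adjusted p = 0.379). *RIX1* had 33.4, 36.5 and 28.8 CPM in Htt25Q [*SLX5*], against 48.5 and 39.0 CPM in Htt25Q [V] (-0.41 ± 0.16, adjusted p = 0.503). *NOC2* (-0.27 ± 0.07, adjusted p = 0.373) was the 1 factor that DESeq2 called.

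Whether *SLX5* acted differently on the factors in Htt103Q and in Htt25Q cells was tested by an interaction term, which equally compares the Htt103Q effect with *SLX5* and with the vector. None of the 51 passed, and none had an unadjusted p under 0.05, where 0% of genes tested were called and 348 of the 6321 had an unadjusted p under 0.05. The differences (log2 fold change by *SLX5* in Htt103Q, less the one in Htt25Q) ran between -0.23 and 0.27 on the log2 scale with a median of 0.04. These values do not show that the effects were equal. The level of *SLX5* itself differed between the Htt lengths. Its log2 fold changes of Htt103Q against Htt25Q were -0.78 ± 0.15 with the vector and -0.89 ± 0.13 with *SLX5* (adjusted p = 0.00118 and 0.000317).

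Related groups were set beside the 51. Of 57 assembly factors of the small subunit, 39 rose and 3 fell in Htt103Q [V] against Htt25Q [V] (68.4% and 5.26%), where 27.3% of genes tested rose and 29.5% fell, and the median log2 fold change was 0.51, as for the large-subunit factors. The 3 that fell, named after their values were seen, were *NOC4*, *RIO1* and *SLX9*. Another 37 factors tied to the large subunit, such as processing enzymes, chaperones of ribosomal proteins and cytoplasmic release factors, had 19 that rose and 5 that fell (51.4% and 13.5%), with a median of 0.28. The 5 that fell, also named after their values were seen, were *LAS1*, *SDO1*, *BUD20*, *SYO1* and *RAT1*. The 81 genes for large-subunit ribosomal proteins, the parts that these factors assemble, had 12 that rose and 12 that fell (14.8% each), both shares below those over all genes tested, with a median of -0.01. With plasmid *SLX5* the medians were 0.50, 0.36 and -0.00 for the same lists in that order, against 0.56 for the 51 factors. Of 8 RNA polymerase I genes 5 rose with either plasmid (62.5%, where 27.3% of genes tested rose with the vector and 26.9% with *SLX5*), with a median of 0.52 with the vector.

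Within the 51, motif content did not follow the calls closely. Of the 37 factors that rose in Htt103Q [V] against Htt25Q [V], 31 had both PAC and RRPE, as had 10 of the 14 that did not pass. The median log2 fold change was 0.53 for the 41 genes with both motifs, 0.51 for the 4 with RRPE alone and 0.23 for the 6 with PAC alone, which include *DBP10* at 1.08 and *MAK5* at -0.03. Among all genes that rose, 9.76% had both motifs, against 5.15% of genes tested. Of the 4 regulator genes, *TOD6* had 202, 162 and 123 CPM in the Htt103Q [V] cultures, against 93.3 and 87.0 CPM in the Htt25Q [V] cultures (0.85 ± 0.18, adjusted p = 0.00215). *DOT6*, the other PAC-binding repressor, had 333, 352 and 413 CPM in the Htt103Q [V] cultures, against 585 and 569 CPM in the Htt25Q [V] cultures (-0.66 ± 0.12, adjusted p = 0.000905). The paralogs thus moved in opposite directions. *STB3* fell (-0.31 ± 0.10, adjusted p = 0.0196), and *SFP1* did not pass (0.09 ± 0.07, adjusted p = 0.292). With plasmid *SLX5* the 4 values were 0.90 for *TOD6*, -0.56 for *DOT6*, -0.26 for *STB3* and 0.22 for *SFP1*, all of which passed.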

How the data were processed

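Libraries were made from total RNA of 3 OD600 equivalents of cells (per the labels with a stranded mRNA kit, per the study's methods with a stranded total RNA kit). The authors trimmed reads with Trimmomatic 0.36, aligned them with STAR 2.5.1 to annotated transcripts of assembly EF4 and counted with RSEM 1.2.22. The deposited values used here are RSEM expected counts per gene and the authors' TPM. Over all rows 16.5% of expected counts were not whole, and the counts were rounded. Strand use in counting was not given in the sources used here. Lengths in the files equal RefSeq coding lengths for all 51 members.

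Counts were tested with edgeR 4.0.16 (R 4.3.3): trimmed mean of M values scaling, filterByExpr over the 4 groups (6321 of 7126 rows kept, the 51 factors included), glmQLFit on all 11 libraries, glmQLFTest for each comparison and Benjamini-Hochberg adjustment over the 6321 genes. A gene was called at an adjusted p under 0.05. Standard errors are the log2 fold change over the square root of F. The script was tested on simulated data. Promoters and chromosome positions came from RefSeq R64, which paired 6048 row names with a gene. Every factor may be named, and values by culture are given for the largest and smallest log2 fold change of each role group in Htt103Q [V] against Htt25Q [V]. The 51 members, the role groups and the other lists were chosen with earlier results of these data known. For each comparison up to 21 alternatives were run, among them DESeq2 1.42.0, and their effect is given at the end.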

Additional observations from a re-analysis of the deposited data

How the results depend on the processing

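The counts of factors called kept within 1.5 times of the values given above under all alternatives but 2. For Htt103Q [V] against Htt25Q [V] (37 called), DESeq2 called 40, a two-step likelihood ratio procedure 40, DESeq2-type size factors within edgeR 38, scaling by library totals 40, the compared groups alone 35, and a threshold of 0.01 27. For Htt103Q [*SLX5*] against Htt25Q [*SLX5*] (43 called), the same alternatives gave 44, 44, 43, 46, 44 and 35. Leaving out 1 library at a time gave 26 (without Htt25Q [V] culture b) to 44 (without Htt103Q [V] culture c) in the vector comparison and 36 to 44 in the *SLX5* comparison. Without the 4 clone-a libraries the counts were 27, where 16.4% of genes tested rose, and 36. With all libraries 27.3% of genes tested rose in the vector comparison, so the share over all genes also moved with the fit. That share is not given for the other counts above, which therefore do not show how far the 51 stood apart from other genes. The exceptions were 35 factors called in Htt103Q [*SLX5*] against Htt103Q [V] without Htt103Q [V] culture c, in a range of 0 to 35 over the left-out libraries, and 1 in Htt25Q [*SLX5*] against Htt25Q [V] with DESeq2. A replicate block on the clone letter gave 40, 44, 0 and 0 calls in the 4 comparisons and 0 for the interaction. The labels do not say that a letter marks a shared day or batch. Same-letter cultures had correlations of their deviations between -0.145 and 0.21, with 7 of 15 above 0.1, against 5 of 30 for different letters, and not every culture correlated best with its own letter, so the letters were not taken as pairing, and a shared factor was not tested.

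Among all 51 factors, no value that passed changed sign. In the Htt103Q comparisons signs changed for *MAK5*, *SSF1*, *NIP7* and *DBP6* with the vector and *IPI1* with *SLX5*. Signs changed under at least 1 alternative for 8 factors in Htt103Q [*SLX5*] against Htt103Q [V], among them *RSA4* (-0.39, and 0.03 without the clone-a libraries), for *URB2* in Htt25Q [*SLX5*] against Htt25Q [V] (-0.18, and 0.01 without the clone-a libraries) and for 32 in the interaction. *MAK5* in Htt103Q [V] against Htt25Q [V] (-0.03) became 0.03 with library totals and 0.00 with the replicate block, and ranged between -0.12 and 0.04 over the left-out libraries. *SSF1* (0.05) ranged between -0.10 and 0.23 and *NIP7* (-0.08) between -0.14 and 0.02 in the same way, and *SSF1* became -0.03 without the clone-a libraries. *IPI1* in Htt103Q [*SLX5*] against Htt25Q [*SLX5*] (-0.01) became 0.01 with DESeq2, 0.00 with its size factors, 0.10 with library totals, 0.00 with the compared groups alone and 0.08 without the clone-a libraries, and ranged between -0.05 and 0.08 over the left-out libraries. *IPI1* passed as lower in Htt103Q [V] against Htt25Q [V] without Htt103Q [V] culture a (-0.36, adjusted p = 0.0211). With library totals *MAK5* (0.27, adjusted p = 0.0322) and *NIP7* (0.28, adjusted p = 0.0271) passed in Htt103Q [*SLX5*] against Htt25Q [*SLX5*]. The causes were not tested. With 2 cultures of Htt25Q [V], small changes in the vector comparisons are measured least well.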
